A study of Homo sapiens with 8 samples.

Results

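The stretch of the short arm of chromosome 7 from NUP42 to MPLKIP holds 92 protein-coding genes in RefSeq, and 55 of them are described here, of 14884 genes named on the array. They are the protein-coding genes whose start lies between these ends and that carry a name in the array's annotation table. HOXA genes, EVX1, NPY, TBX20 and NEUROD6, 16 genes in RefSeq, were set aside, and 21 others had no probe set named here. The stretch was chosen by lower signal under the RING1B hairpin in A673, so the A673 change of its genes is given as a description without a test. The brightest probe set, by mean over the 8 arrays, stands for each gene, and the 26 genes with a mean log2 level above 5.8 are kept apart from the 29 at or below it. MALSU1 is the gene above 5.8 whose SK-ES1 mean lies at or below that level. Of the 29 others, 5 had an A673 mean above 5.8 and a SK-ES1 mean at or below it. These were ADCYAP1R1, SPMIP4, BBS9, CREB5 and BMPER. Just inside the level were MTURN at 5.93, MALSU1 at 6.02 and STARD3NL at 6.17, with A673 changes of -0.56, -0.56 and -0.30. Just outside it were BBS9 at 5.71, SPMIP4 at 5.70 and BMPER at 5.63, with -0.65, -0.94 and -0.01.

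The series compares 2 established Ewing sarcoma lines, A673 and SK-ES1, both of which carry an EWSR1-FLI1 fusion. Each line was given shRING1B, a short hairpin RNA directed at RING1B, or shGFP, a control directed at GFP, with 2 arrays for each of the 4 groups. The labels name no clone, hairpin sequence or time after delivery, and leave unsaid whether the arrays of a group are separate cultures. The p-values below therefore measure spread between samples that may be technical only. RNF2, which encodes RING1B, was not analysed here, so the depth of the knockdown in either line is not known. Of 10 markers of Ewing sarcoma 5 were named, CD99, NKX2-2, STEAP1, CCND1 and BCL11B, and all lay above 5.8, while the 5 named markers of immune, endothelial and epithelial cells lay below it. Array medians of all probe sets ran from 4.01 to 4.1, and arrays of 1 group correlated at 0.9911 to 0.9937 over all genes.

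RING1B is the ubiquitin ligase of Polycomb repressive complex PRC1, which marks histone H2A and is known above all for silencing developmental genes over broad domains such as the HOX clusters. The HOXA cluster lies inside the stretch and is a textbook Polycomb domain, but most of its neighbours are not developmental genes. They include broadly used genes for RNA binding and splicing (HNRNPA2B1, TRA2A), heterochromatin binding (CBX3), protein synthesis (GARS1), autophagy (TAX1BP1) and vesicle traffic (VPS41, AVL9), with tissue-restricted receptors between them. IGF2BP3, an oncofetal RNA-binding protein, is another of the neighbours.

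In A673 most genes of the stretch above 5.8 read lower under shRING1B than under shGFP, by differing amounts. Of the 26 genes above 5.8, 25 had a log2 change below 0, and the median was -0.54, with a range of -0.89 (NUP42) to 0.13 (OSBPL3). Both shRING1B arrays lay below both shGFP arrays for 21 of the 26 genes and above them for 0. The arrays of OSBPL3, NFE2L3, SCRN1, STARD3NL and VPS41 overlap. Among all 6231 genes above 5.8 the median was 0.02 and 46.6% were below 0, and the arrays were separate and lower in 26.7% and separate and higher in 32%. Among the 225 genes above 5.8 on the rest of chromosome 7 the median was 0.04 and 93 lay below 0. This contrast chose the stretch, so these counts describe it and support nothing.

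**Figure D1:**
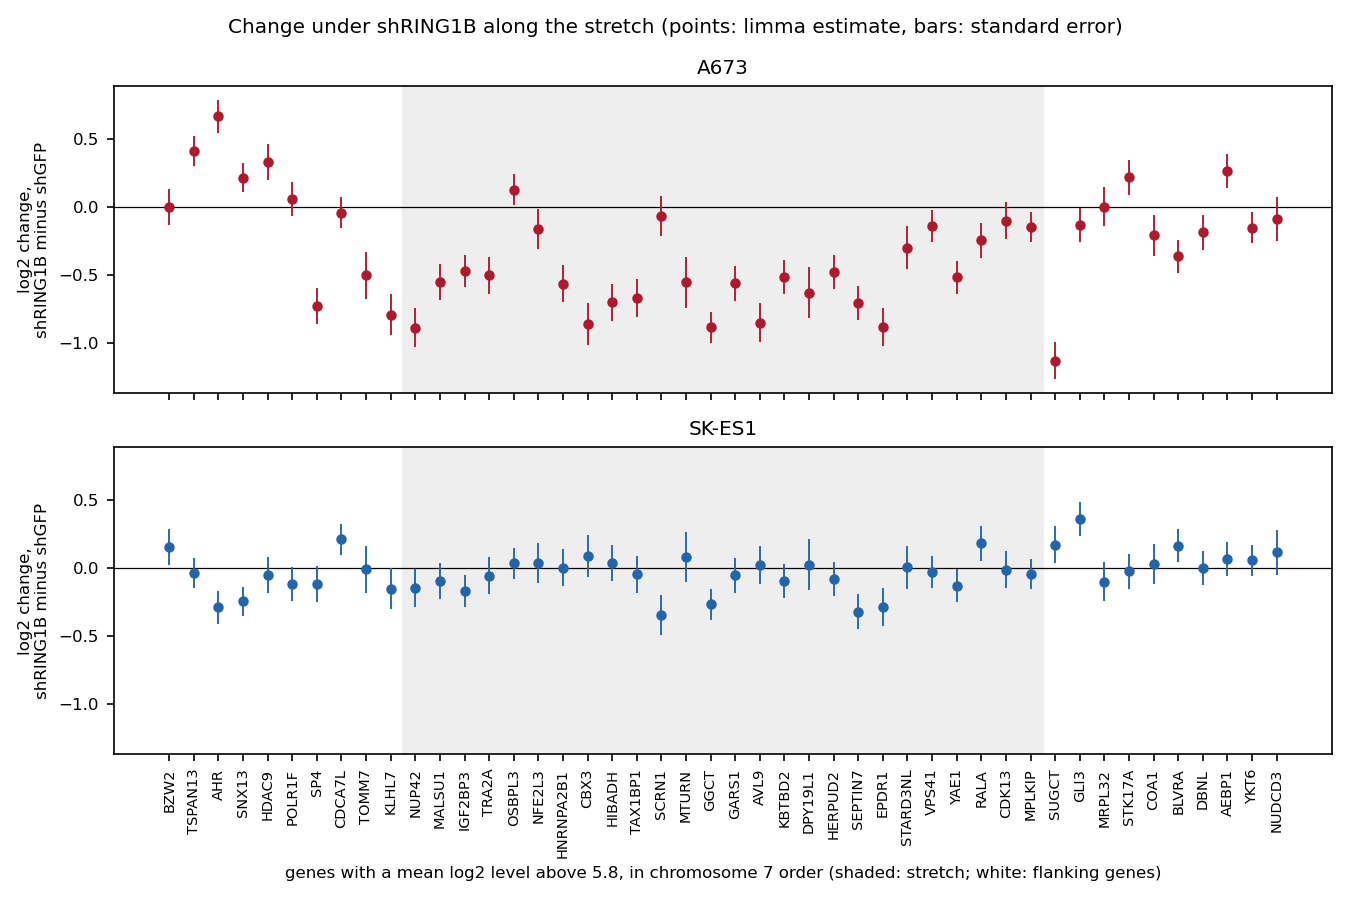
Log2 change, shRING1B minus shGFP (vertical axis), for each gene above 5.8 in chromosome order (horizontal axis), in A673 (upper panel) and SK-ES1 (lower panel). Points are estimates and bars standard errors from limma, the 26 genes of the stretch are shaded and the 10 flanking genes on each side are not. In A673 25 of 26 shaded points lie below 0, with a median of -0.54, and in SK-ES1 the median is -0.05.

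The lower signal was not even along the stretch. With the excluded genes as landmarks, the 8 genes above 5.8 from NUP42 to the HOXA cluster had a median A673 change of -0.53. The 6 from HIBADH to NEUROD6 had -0.62 and the 3 between NEUROD6 and TBX20, namely AVL9, KBTBD2 and DPY19L1, had -0.63. The 9 from TBX20 to MPLKIP had -0.30. Within that last part HERPUD2, SEPTIN7 and EPDR1 stood at -0.48, -0.71 and -0.89, and the genes beyond them were closer to 0, except YAE1 at -0.52. STARD3NL stood at -0.30, RALA at -0.25, VPS41 at -0.14, CDK13 at -0.10 and MPLKIP at -0.15. Single genes also stood apart inside the lower region, among them OSBPL3 at 0.13, SCRN1 at -0.07 and NFE2L3 at -0.16. Of the genes set aside, NEUROD6 and TBX20 had changes of -2.03 and -1.88 and HOXA2 of -0.96, while NPY was at 0.56 and EVX1 at 0.10.

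Lower values also stood just outside both ends of the stretch. On the side of NUP42, the nearest flanking genes above 5.8, KLHL7 and TOMM7, stood at -0.79 and -0.50, CDCA7L at -0.05 and SP4 at -0.73. Further out AHR, TSPAN13 and HDAC9 stood at 0.67, 0.41 and 0.33, and the median of the 10 flanking genes was 0.03. HDAC9 lay above 5.8 only through SK-ES1, with means of 5.04 and 5.37 in A673 shGFP and shRING1B. Of these 10 genes, 3 had separate and lower A673 arrays and 4 separate and higher. On the other side SUGCT, next to MPLKIP, stood at -1.13 and GLI3, a Hedgehog pathway transcription factor, at -0.13. SUGCT lay above 5.8 only through SK-ES1, with means of 6.44 under shGFP and 6.61 under shRING1B. In A673 its means were 5.78 under shGFP and 4.65 under shRING1B. The median of those 10 genes was -0.14, with 7 below 0. Their A673 arrays were separate and lower for 7 and separate and higher for 2, against 26.7% and 32% of all genes above 5.8. Separate and lower arrays were thus not particular to the stretch.

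Genes for RNA handling and protein synthesis had the same median A673 change as the 26 genes, -0.54. Of 10 listed, 8 lay above 5.8, each with separate arrays, beside 21 of the 26, while RP9, a low gene of the list, stood at -0.40 with overlapping arrays. NUP42, a nucleoporin of the messenger RNA export side of the pore, read 7.92 and 8.03 under shGFP and 6.98 and 7.18 under shRING1B in A673. Its shRING1B level was thus 53.9% of the shGFP level. In SK-ES1 NUP42 read 6.55 and 6.82 under shGFP and 6.42 and 6.66 under shRING1B, where the arrays overlap. IGF2BP3, which binds and stabilises messenger RNAs of fetal growth programmes, read 7.44 and 7.63 against 7.08 and 7.03 in A673. The splicing regulator TRA2A (-0.50), the mitochondrial ribosome assembly factor MALSU1 (-0.56), the glycyl-tRNA synthetase gene GARS1 (-0.56) and YAE1 (-0.52) lay close together. CDK13, a kinase of the RNA polymerase II tail, had the smallest difference of the group, at 93% of its shGFP level.

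HNRNPA2B1 and CBX3 are a head-to-head gene pair known for a shared, methylation-free promoter region that keeps transgenes active. HNRNPA2B1 encodes an abundant RNA-binding protein and CBX3 encodes heterochromatin protein HP1 gamma. In the RefSeq promoter table (GRCh38.p14) their starts lie 697 bases apart on opposite strands. HNRNPA2B1 read 10.28 and 10.50 under shGFP and 9.82 and 9.82 under shRING1B in A673, and 9.53 and 9.85 against 9.73 and 9.65 in SK-ES1. CBX3 read 9.27 and 9.58 against 8.60 and 8.54 in A673, and 7.97 and 8.35 against 8.19 and 8.31 in SK-ES1. The arrays of both partners were thus separate in A673 (-0.57 and -0.86) and overlap in SK-ES1 (0.00 and 0.09). MPLKIP and SUGCT, at the far end, are a second head-to-head pair with starts 383 bases apart, and there the A673 changes were unequal, -0.15 and -1.13. The mean level of SUGCT was below 5.8 in both A673 groups. AVL9 at -0.85 faces LSM5, which was not named here. HNRNPA2B1 and CBX3 have processed pseudogenes elsewhere in the genome, and whether their probes match these was not tested.

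The 250 bases before the RefSeq start are shown for NUP42, for the HNRNPA2B1 and CBX3 pair and for MPLKIP, to show the CpG content of starts whose genes differed strongly (NUP42, CBX3) or little (MPLKIP) in A673. The sequences are from chr7:23181798-23182047, plus strand (NUP42), chr7:26200747-26200996, minus strand (HNRNPA2B1), chr7:26201193-26201442, plus strand (CBX3) and chr7:40134623-40134872, minus strand (MPLKIP), in GRCh38.p14, each 5′ to 3′ on the strand of the gene. Capitals mark CpG dinucleotides, of which the 4 windows hold 21, 24, 16 and 13. These 4 are examples, and other windows ran the other way. The windows of CDK13 (A673 change -0.10) and SCRN1 (-0.07) hold 30 and 28, and those of EPDR1 (-0.89) and TAX1BP1 (-0.67) hold 5 and 1. A link between CpG content and the A673 change was not tested.
NUP42: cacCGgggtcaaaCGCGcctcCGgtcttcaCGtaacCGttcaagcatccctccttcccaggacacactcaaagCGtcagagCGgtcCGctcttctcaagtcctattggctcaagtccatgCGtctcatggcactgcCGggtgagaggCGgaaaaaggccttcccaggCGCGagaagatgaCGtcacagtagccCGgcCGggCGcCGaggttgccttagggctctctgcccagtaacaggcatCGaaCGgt
HNRNPA2B1: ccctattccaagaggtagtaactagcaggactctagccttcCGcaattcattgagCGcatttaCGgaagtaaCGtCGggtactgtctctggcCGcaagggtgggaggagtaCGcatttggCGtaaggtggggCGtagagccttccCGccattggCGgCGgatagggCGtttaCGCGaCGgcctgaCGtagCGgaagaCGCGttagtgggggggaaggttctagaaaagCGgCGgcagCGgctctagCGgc
CBX3: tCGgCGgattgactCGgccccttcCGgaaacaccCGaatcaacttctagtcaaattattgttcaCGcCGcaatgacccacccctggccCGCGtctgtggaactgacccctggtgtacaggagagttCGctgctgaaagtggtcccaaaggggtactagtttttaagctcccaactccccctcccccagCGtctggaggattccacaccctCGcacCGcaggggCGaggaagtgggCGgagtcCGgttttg
MPLKIP: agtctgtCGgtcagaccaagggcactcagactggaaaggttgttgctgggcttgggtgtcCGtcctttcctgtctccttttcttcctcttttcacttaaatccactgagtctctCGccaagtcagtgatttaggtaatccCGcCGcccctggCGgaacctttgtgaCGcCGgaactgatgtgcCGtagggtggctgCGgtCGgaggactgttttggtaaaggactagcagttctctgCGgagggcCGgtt

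Promoter letters were described for the 26 genes beside those of other expressed genes. The table gave a 300-base window (250 bases before the start and 50 after) for 22 of them, with a median of 26 CpG and a GC content of 60.8%, against 27 and 66% over 4997 named genes above 5.8. Of the 22, 4 had 7 CpG or fewer, namely OSBPL3 with 3, TAX1BP1 with 3, VPS41 with 5 and EPDR1 with 7, and their A673 changes ranged from 0.13 for OSBPL3 to -0.89 for EPDR1. The table's start need not be the one these lines use. The ETS motif CCGGAAGT, searched on both strands because FLI1 is an ETS factor, was found in 1 of 22 windows, that of RALA, or 4.55%, against 10.8% for all named genes above 5.8. The doubled GGAA letters GGAAGGAA, also on both strands, were found in 0 of 22 windows and in 3.58% of all named genes above 5.8. The TATA letters TATAAA were found in 1 of 22 windows (GARS1) and in 4.62%. A match is a string of letters, not a bound site.

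Among the other chromatin and transcription genes, NFE2L3, a relative of the antioxidant factor NRF2, read 6.78 and 7.19 under shGFP and 6.79 and 6.85 under shRING1B in A673, where the arrays overlap. MPLKIP, a gene of the non-photosensitive form of trichothiodystrophy, read 7.59 and 7.71 against 7.54 and 7.46. Of 2 metabolic genes above 5.8, HIBADH, an enzyme of valine breakdown, read 8.00 and 8.34 against 7.40 and 7.54. GGCT, an enzyme of the glutathione cycle, read 7.57 and 7.61 against 6.80 and 6.61, or 54% of its shGFP level. The arrays of both metabolic genes were separate.

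Genes of membrane traffic and protein turnover formed the longest list above 5.8. Of the 9 above 5.8 (of 17 listed), 8 lay below 0, with a median of -0.52, and 6 had separate arrays, while those of OSBPL3, STARD3NL and VPS41 overlap. AVL9, a late secretory pathway protein, read 8.40 and 8.62 under shGFP and 7.57 and 7.74 under shRING1B. TAX1BP1, an autophagy receptor, read 9.09 and 9.32 against 8.38 and 8.69. MTURN was put in this list without an established role in these processes. It read 6.01 and 6.47 against 5.45 and 5.92, with a gap between the groups that was narrow beside the gap within them. OSBPL3, an oxysterol-binding protein, read 6.99 and 7.16 against 7.25 and 7.15 and was the gene above 5.8 with a positive difference, within overlapping arrays.

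Of the 3 cytoskeleton and signalling genes above 5.8, SEPTIN7, a core septin of the cytokinetic furrow, read 7.90 and 8.08 under shGFP and 7.33 and 7.23 under shRING1B in A673. SCRN1, secernin, read 8.16 and 8.04 against 8.00 and 8.07, so these groups overlap. RALA, a small GTPase of exocyst signalling, read 6.76 and 6.66 against 6.34 and 6.59. EPDR1, a secreted ependymin-related protein, read 6.20 and 6.38 against 5.23 and 5.57 and was the secreted or receptor gene above 5.8. The groups of RALA and EPDR1 do not overlap.

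The 29 genes at or below 5.8 include receptors and structural genes of nerve, immune and germ cells. Their A673 changes had a median of -0.14, and 22 were below 0, against 47.8% of all genes. Of these genes 6 had a change below -0.5. AMPH, an endocytic protein of nerve terminals, read 5.49 and 5.52 under shGFP and 3.94 and 4.51 under shRING1B. ADCYAP1R1, the receptor of the neuropeptide PACAP, read 6.58 and 6.59 against 5.69 and 5.37. SPMIP4, a sperm microtubule protein, read 6.15 and 6.44 against 5.17 and 5.54.

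The remaining low genes with such a change were SKAP2, GPNMB and BBS9. SKAP2, an adaptor of immune-cell adhesion, read 5.14 and 5.0 against 4.19 and 4.33. GPNMB, a glycoprotein of melanosomes and macrophages, read 5.60 and 5.69 against 4.54 and 5.46, so 1 of its shRING1B arrays lay close to shGFP. BBS9, a subunit of the ciliary BBSome, read 6.11 and 6.30 against 5.47 and 5.65. Of the 11 low genes with a mean under 4.1, near the median of all probe sets, 1 had a change past 0.5 in size (SKAP2). The receptor genes CRHR2 and GHRHR and the water channel gene AQP1 stood at -0.26, -0.33 and -0.01 at levels below 5.

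**Figure D2:**
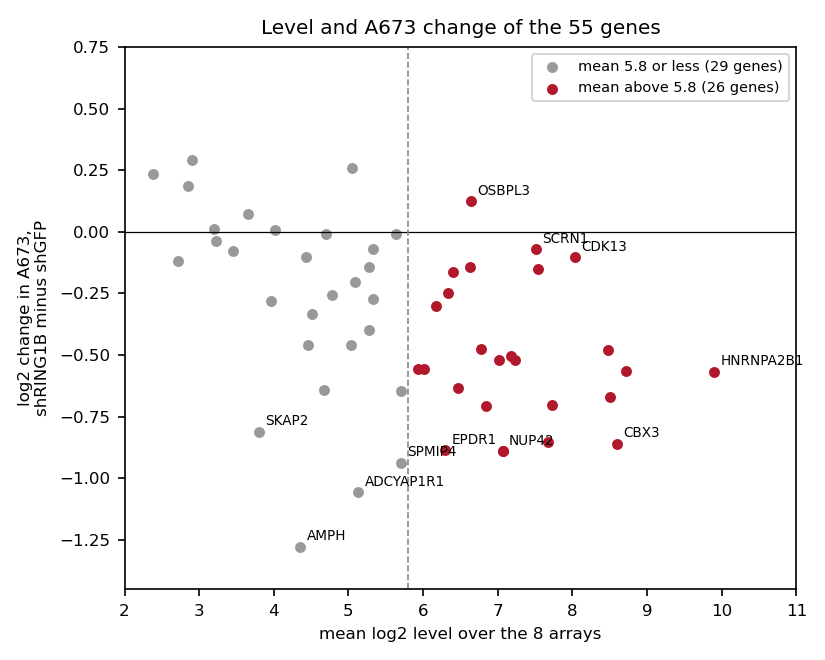
Mean log2 level over the 8 arrays (horizontal axis) and log2 change in A673, shRING1B minus shGFP (vertical axis), for the 55 genes, with the dashed line at 5.8. The 26 genes above it have a median of -0.54 and the 29 others a median of -0.14, and the lowest value is AMPH at -1.28.

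The 2 A673 shGFP arrays differed from each other over the stretch. Replicate 2 read higher than replicate 1 for 24 of the 26 genes above 5.8, with a median difference of 0.20, while it was higher for 48.4% of all genes above 5.8, with a median of -0.01. In A673 shRING1B the share was 53.8% of the 26 genes, below the 69% of all genes above 5.8. It was 73.1% against 48.9% in SK-ES1 shGFP and 46.2% against 48.5% in SK-ES1 shRING1B. The median A673 change of the 26 genes was -0.65 without A673 shGFP replicate 1 and -0.42 without A673 shGFP replicate 2. The part of the difference between these arrays in the A673 change was not tested.

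In SK-ES1, which did not enter the choice of the stretch, the median change of the genes lay close to that of all others. The median change of the 26 genes was -0.05, against -0.02 for all genes above 5.8, and 16 of 26 (61.5%) lay below 0, against 57.1%. Without SK-ES1 shGFP replicate 2 the median was 0.02. The range ran from -0.35 to 0.18, with standard errors of 0.110 to 0.187, and SK-ES1 shRING1B arrays lay wholly below shGFP arrays for 7 genes (21.9% of all genes above 5.8) and wholly above for 2 (14.3%). Limma called 0 of the 55 genes, against 10 genes or 0.0672% of all genes. With so few called over all genes, 0 of 55 does not show a lack of response. At an unadjusted limma p under 0.05 there were 4 lower and 1 higher of the 55, where 7.36% of all genes passed in either direction. Of the 26 genes above 5.8, 3 passed as lower and 0 as higher, against 245 and 59 of all 6231 genes above 5.8. The 29 low genes had a median of 0.06.

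The smallest p-values in SK-ES1 among the 26 genes belonged to SEPTIN7, SCRN1 and GGCT, each lower. SEPTIN7 read 6.08 and 6.32 under shGFP and 5.88 and 5.88 under shRING1B, a change of -0.32 (limma adjusted p = 0.633). SCRN1 read 7.22 and 7.03 against 6.98 and 6.58 (-0.35, limma adjusted p = 0.658), beside -0.07 in A673. GGCT read 7.16 and 7.08 against 6.88 and 6.83 (-0.27, limma adjusted p = 0.663). These 3 had separate arrays and none passed. On the positive side RALA read 6.01 and 5.94 against 6.06 and 6.25, with 0.18 (limma adjusted p = 0.839). CBX3 and MTURN followed with 0.09 and 0.08, and their sign turned without SK-ES1 shGFP replicate 1. The A673 and SK-ES1 changes were not tested against each other for these genes, since the A673 change chose the stretch.

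With either hairpin, A673 expressed most of the stretch at a higher level than SK-ES1. The difference SK-ES1 minus A673 was averaged over both hairpins with equal weight. It draws on the A673 arrays that chose the stretch. Its error is uncorrelated with that of the A673 change only if all arrays have equal error. Equal error is doubtful here, because the A673 shGFP arrays differed in the same direction for 24 of the 26 genes above 5.8. The line difference is thus not independent of the choice, and its calls, shares and p-values, here and below, are a description. For these 26 genes its median was -0.77 between the shGFP groups. Between the shRING1B groups it was -0.32, with 22 of 26 below 0. The part owed to the choice was not tested. Of the 26 genes above 5.8, 19 (73.1%) were lower in SK-ES1 by limma and 1 was higher, against 30.3% lower and 25.8% higher among all genes above 5.8. Of the 26, 25 lay below 0, against 52.7% of all genes above 5.8. The median difference was -0.56, against -0.02 for all genes above 5.8 and -0.10 for the rest of chromosome 7, where 34.7% were called lower. For 16 genes all 4 SK-ES1 arrays lay below all 4 A673 arrays, as for 29% of all genes above 5.8. With the 29 low genes included, 28 of 55 were called lower and 1 was called higher, against 22.2% and 18.8% of all genes.

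**Figure D3:**
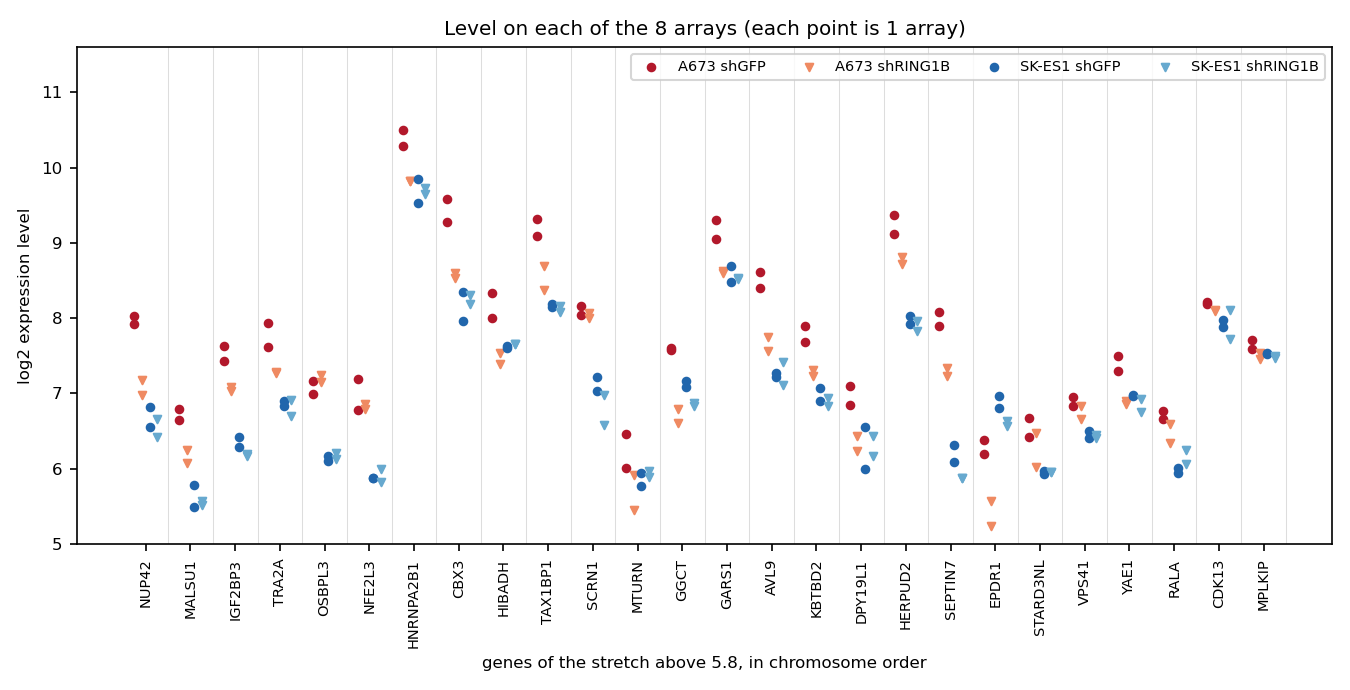
Log2 level on each array (vertical axis) of the 26 genes above 5.8 in chromosome order (horizontal axis), with circles for shGFP, triangles for shRING1B, red tones for A673 and blue tones for SK-ES1. The A673 shGFP points are the highest for most genes, EPDR1 is highest in SK-ES1, and the median level of the genes is 7.71 in A673 shGFP, 7.23 in A673 shRING1B, 6.93 in SK-ES1 shGFP and 6.79 in SK-ES1 shRING1B.

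SEPTIN7 had the largest difference between the lines among the 26 genes, -1.60 (standard error 0.0892, limma adjusted p = 2.96e-07), or a 3.02-fold higher level in A673. SCRN1 differed by -1.12 (limma adjusted p = 1.15e-05), and its A673 arrays (8.00 to 8.16) all lay above its SK-ES1 arrays (6.58 to 7.22). HERPUD2, a homologue of a protein of endoplasmic reticulum degradation, read 9.12, 9.38, 8.72 and 8.81 in A673 and 7.93, 8.03, 7.96 and 7.84 in SK-ES1, a difference of -1.07 (limma adjusted p = 5.18e-06). IGF2BP3 read 6.43 and 6.28 under shGFP and 6.17 and 6.19 under shRING1B in SK-ES1, below its A673 arrays, with -1.02 (limma adjusted p = 4.4e-06). NFE2L3 read 5.87, 5.88, 6.0 and 5.82 in SK-ES1 and differed by -1.01 (limma adjusted p = 2.27e-05). OSBPL3, which had no decrease in A673, still differed by -0.98 (limma adjusted p = 5.18e-06).

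The exception was EPDR1, which read 6.81, 6.97, 6.64 and 6.57 in SK-ES1 and was higher there by 0.90 (limma adjusted p = 4.03e-05). The genes not called lay towards the middle and the MPLKIP end: HIBADH at -0.18, GGCT at -0.16, MTURN at -0.07, YAE1 at -0.23, CDK13 at -0.23 and MPLKIP at -0.07. By part of the stretch, limma called 8 of 8 genes above 5.8 lower in SK-ES1 up to the HOXA cluster and 3 of 6 from HIBADH to NEUROD6. It called 3 of 3 between NEUROD6 and TBX20 and 5 of 9 beyond TBX20, beside 30.3% of all genes above 5.8. Below 0 lay 8, 6, 3 and 8 genes of these parts. In the flanks the median line differences were -0.01 before NUP42 and -0.19 after MPLKIP, with 6 of 10 and 7 of 10 genes below 0. Near NUP42, KLHL7, CDCA7L and SP4 differed by -1.54, -1.11 and -1.26, and TOMM7 by -0.01. Next to MPLKIP, SUGCT differed by 1.31 and GLI3 by -2.81. Large differences between the lines thus also stood just outside the stretch. Among low genes ADCYAP1R1 and SKAP2 had the largest differences, -1.86 and -1.72 (limma adjusted p = 3.21e-07 and 8.3e-08). The call of DPY19L1, at -0.37 (limma adjusted p = 0.0481), was lost in 8 of 14 alternatives, among them without SK-ES1 shGFP replicate 1 (0.167). That of GARS1, at -0.34 (limma adjusted p = 0.0123), was lost without A673 shGFP replicate 2 (0.0557) and without SK-ES1 shGFP replicate 1 (0.0506).

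**Figure D4:**
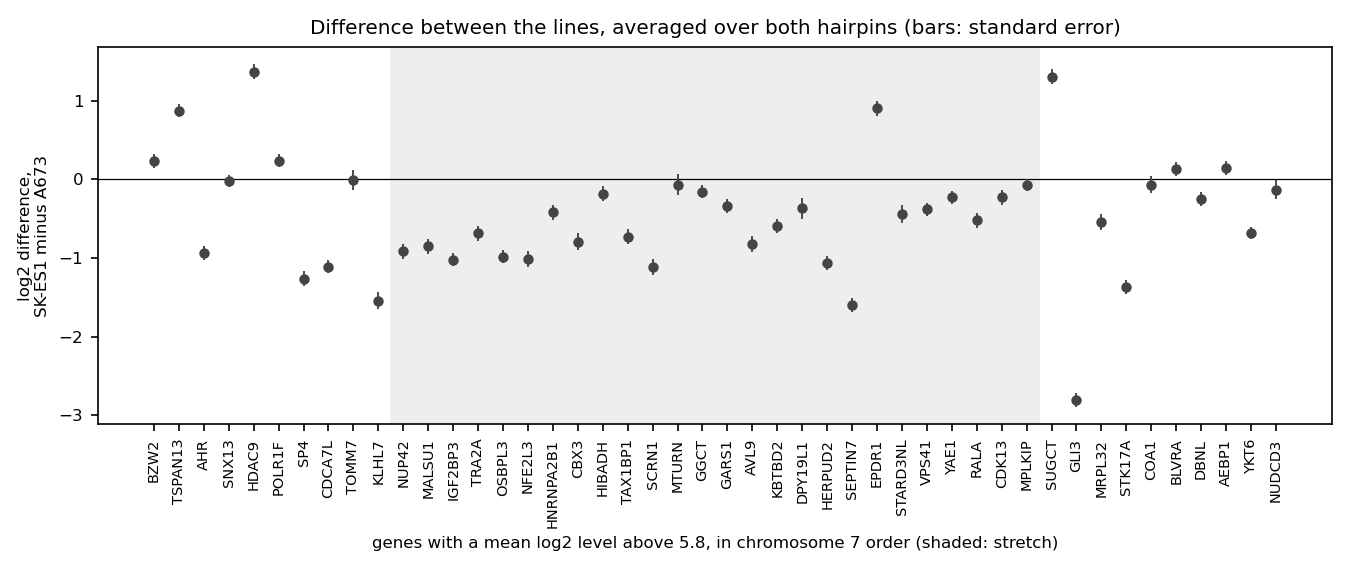
Log2 difference SK-ES1 minus A673 averaged over both hairpins (vertical axis; points are limma estimates and bars standard errors) for the genes above 5.8 in chromosome order (horizontal axis), with the stretch shaded and 10 flanking genes on each side. Of the 26 shaded points 25 lie below 0, and the exception is EPDR1 at 0.90; in the flanks 6 of 10 and 7 of 10 lie below 0, with wider spread.

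The median distance between the lines was smaller under shRING1B than under shGFP. The median difference of the 26 genes was -0.77 between the shGFP groups and -0.32 between the shRING1B groups. These values use the A673 arrays that chose the stretch and are a description. For 20 of the 26 genes the A673 shRING1B mean still lay above both SK-ES1 means. TAX1BP1, for example, stood 1.04 lower in SK-ES1 than in A673 under shGFP and 0.42 lower under shRING1B, and HNRNPA2B1 0.70 and 0.13 lower. The distance was smaller under shRING1B for 23 of the 26 genes and larger for 3. EPDR1 went from 0.60 to 1.20, SCRN1 from -0.98 to -1.26 and OSBPL3 from -0.94 to -1.03, so these lay further apart.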

How the data were processed

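Expression was measured on arrays in 8 samples, from 30 ng of total RNA each, per the labels' protocols. The deposited values are log2 expression per probe set, made with RMA (background correction, quantile normalization and summary of probes) per the submitters' processing notes, which also name limma; no version, array annotation or genome build is given in the sources used here. The quantile step hides a change shared by most genes. Of 48144 probe sets, 16098 had 1 gene symbol in the platform's table (0 had several), all matched RefSeq of GRCh38.p14 by gene ID, and they gave 14884 genes; that annotation gave gene order. Of the 55 genes, 54 had 1 probe set named.

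Limma 3.58.1 in R 4.3.3 fitted 4 group means to all 8 arrays, with 4 residual and 6 prior degrees of freedom. Two-sided p-values were adjusted by Benjamini-Hochberg over all genes, with a threshold of 0.05. The fit was tried on simulated SK-ES1 changes of 1 and 2 in log2 size, of which 80% and 97% were recovered. Changes smaller than 1 were not simulated. Replicates are numbered in accession order. Genes named with array values were taken by rule: above 5.8, the 8 lowest A673 changes and any above 0, the 3 smallest SK-ES1 p-values in each direction, the 5 largest called line differences in each direction and head-to-head partners (starts within 1000 bases); at or below 5.8, A673 changes past 0.5 in size. Other genes named for position or role were chosen after their values were seen. The stretch, the lists and the rule were chosen with earlier results of these data known. No scanner files were used, so signal over background was not measured, and the number of arrays limits precision. Alternatives were other normalizations, each array left out, another variance model, a level filter, other levels for the split, the mean of a gene's probe sets, and the SK-ES1 arrays alone.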

Additional observations from a re-analysis of the deposited data

Results flagged for a closer look

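For 7 genes of the stretch the arrays of the lines moved to opposite sides: in 1 line both shRING1B arrays lay above both shGFP arrays and in the other below. That is 12.7% of the 55 genes, beside 8.69% of all genes. The A673 side of this pattern chose the stretch, where 35 of the 55 genes had separate and lower A673 arrays. The share is thus a description and supports nothing. The difference between the lines was not tested for them, and with 2 arrays a group such a pattern needs no large change. ADCYAP1R1 had the widest gap, with -1.06 in A673 and 0.36 in SK-ES1. RALA had -0.25 and 0.18, HIBADH -0.70 and 0.04, EEPD1, a DNA repair nuclease, -0.20 and 0.20, and CREB5 -0.07 and 0.18, in A673 and SK-ES1 respectively. GPR141 had -0.08 and 0.04. NPVF, a neuropeptide precursor at a level near 2.4, had 0.24 in A673 and -0.29 in SK-ES1.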

How the results depend on the processing

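No paired analysis was run, because the labels carry no replicate numbers and do not say which arrays belong together. A pairing by accession order was not tried. The medians of the 26 genes kept their direction under each normalization tried: -0.523 to -0.538 in A673, -0.084 to -0.022 in SK-ES1 and -0.588 to -0.522 between the lines. The line median was -0.440 for genes above 5.5 and -0.685 for genes above 6.5. With 1 array left out the medians ran from -0.646 to -0.417 in A673, from -0.100 to 0.020 in SK-ES1 and from -0.578 to -0.535 between the lines; the lone array is then assumed to vary like the other groups. Called genes of the stretch stayed at 0 in SK-ES1 under every alternative run and between the lines ran from 22 (of genes above 5.8 alone) to 31, with 27 to 30 when 1 array was left out; 27 of the 29 (not GARS1 and DPY19L1) held in every alternative that tested them. Over all genes, 10 were called in SK-ES1, 16 with arrays centred on the median, 34 with a trended, robust variance, 18 with genes above 5.8 alone and 2 to 7 with 1 array left out; between the lines 6103 were called, 4011 with genes above 5.8 alone, where fewer genes were tested, and 5241 to 5822 with 1 array left out. With 1 array left out, CBX3 ran from -0.099 to 0.280 and MTURN from -0.009 to 0.166 in SK-ES1, both lowest without SK-ES1 shGFP replicate 1. The line difference of MTURN ran from -0.183 to 0.049, above 0 without A673 shGFP replicate 2 (0.047) and without A673 shRING1B replicate 2; the cause was not tested. YAE1 was called in 4 alternatives and CDK13 in 3. Signal over background is unknown, which limits genes below 5.8 most.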
